A study of Mus musculus with 6 samples.

Results

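The noncollagen glycoproteins and proteoglycans of the extracellular matrix were described in the mesenchyme and the epithelium of late embryonic mouse small intestine. The 37 genes were a list of elastic fibre, proteoglycan, adhesive and basement membrane genes, chosen with earlier results of these data known. A probe set belonged to a gene when the platform annotation gave that gene as its only symbol. Of the 37 genes, 34 had such a probe set, with 76 probe sets in all, out of 18161 genes and 45037 probe sets on the array. Fbn1 and Efemp2 are not analysed here, and neither is Loxl2, whose 2 probe sets were annotated to a further gene as well.

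The 6 arrays compared mesenchyme (A, B and C) with epithelium (A, B and C) of E18.5 embryos (late gestation) of C57BL/6 mothers, and the labels name no mutation, transgene or drug in either group. The whole small intestine had been opened, and 9 hours at 4 °C in a recovery solution had let the epithelium be shaken off, and each array carried RNA of 1 pool of 3 embryos. The mesenchyme was the gut wall that stayed in one piece, with muscle, vessels, nerves and connective tissue together. The pools had been chosen from 6 per tissue by RT-PCR for Vil1, Prkg2, Vim, Madcam1 and Actg2, none of which is among the matrix genes described.

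Matrix glycoproteins and proteoglycans fill the space between cells, tie cells to collagen and bind growth factors. Elastic fibres consist of an elastin core on a scaffold of fibrillin microfibrils, whose assembly needs fibulins and lysyl oxidases. Small leucine-rich proteoglycans bind collagen fibrils and regulate their spacing, matricellular proteins modulate adhesion without forming the scaffold, and the basement membrane under an epithelium joins laminin and collagen IV networks through nidogens and perlecan. In the gut wall, fibroblasts and smooth muscle cells are the textbook sources of interstitial matrix, while basement membrane components can come from both sides.

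Expression is given on the log2 scale, where 1 unit is a 2-fold difference. Each difference is mesenchyme minus epithelium with its standard error from limma (n = 3 arrays per tissue), and a gene was called changed at a Benjamini-Hochberg adjusted p under 0.05 and a difference of at least 2-fold. A gene is represented by the probe set whose mean of all 6 arrays was greatest, called its brightest, and the differences of its other probe sets are given beside it. The arrays had medians of 8.7, 8.5 and 8.7 in mesenchyme A, B and C and of 8.1, 8.6 and 8.3 in epithelium A, B and C. Differences are understated where a tissue lies near the array's background, for which 15 control probe sets for bacterial transcripts averaged 5.95, 6.24 and 6.13 in the mesenchyme and 5.91, 6.05 and 6.06 in the epithelium. In bulk tissue, fewer cells of a type and less RNA per cell cannot be told apart.

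Nearly the whole group was higher in the mesenchyme. Of the 34 genes measured, 30 were higher in the mesenchyme, none was higher in the epithelium and 4 were not called. Among all genes tested, 15.9% were called higher in the mesenchyme and 8.19% higher in the epithelium by limma. On the deposited scale, no gene of the group was higher in the epithelium at an unadjusted p under 0.05 either. The median difference of the 34 genes was 3.37, against 0.17 over all genes. A difference of at least 4-fold towards the mesenchyme was found for 27 of them (6.17% of all genes), one of at least 16-fold for 12 (1.05%) and one of at least 32-fold for 7 (0.424%). In 31 of the 34 genes every mesenchymal array lay above every epithelial array, as it did in 30.5% of all genes. Adjusted p-values of the 30 called genes were 7.75e-05 or lower.

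**Figure D1:**
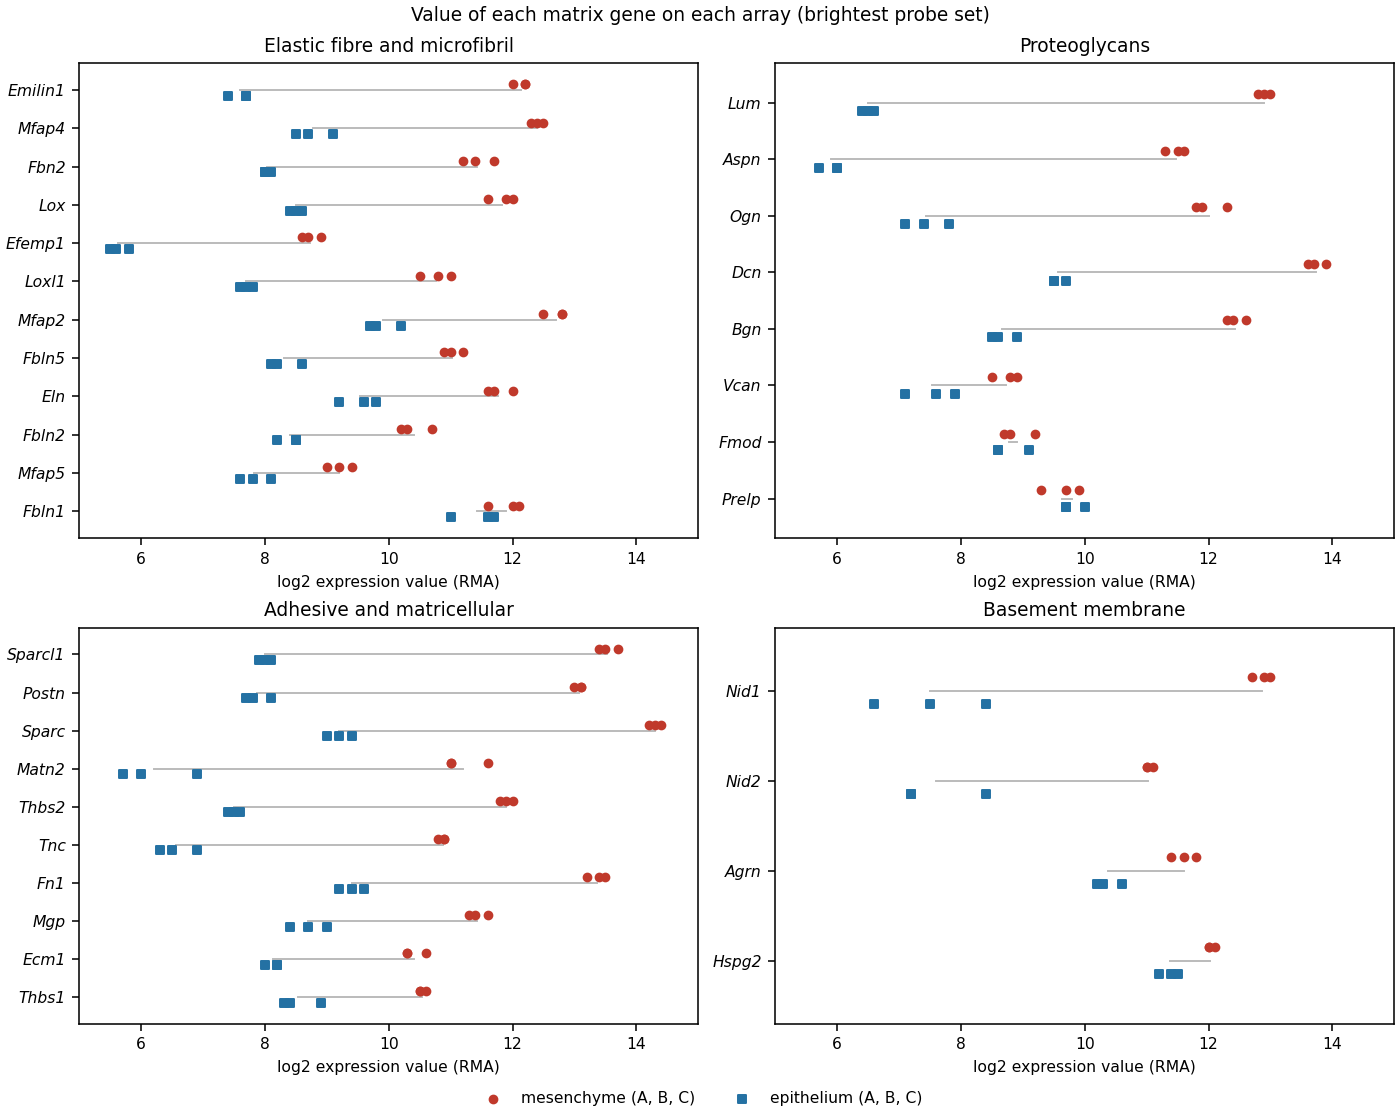
Log2 expression value of the brightest probe set of each of the 34 matrix genes on each array (mesenchyme as circles, epithelium as squares, a grey line joining the tissue means), in 4 classes. The tissues stand apart for 31 genes and overlap for Fbln1, Fmod and Prelp.

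The genes of elastic fibres and microfibrils were higher in the mesenchyme in 11 of 12 cases, with a median difference of 2.93. Eln encodes tropoelastin, the core of the fibre. Its brightest probe set stood at 11.7, 12.0 and 11.6 in mesenchyme A, B and C, against 9.2, 9.6 and 9.8 in epithelium A, B and C, a difference of 2.23 ± 0.23 (adjusted p = 3.03e-10). A further probe set of Eln (1420854_at) gave 1.20 ± 0.24. The tissues did not overlap by either probe set.

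Fbn2, a fibrillin prominent in embryonic microfibrils, had 11.7, 11.4 and 11.2 in the mesenchyme, against 8.1, 8.0 and 8.0 in the epithelium (3.40 ± 0.23, adjusted p = 2.64e-15). By its other probe set, 1454830_at, it had 12.6, 12.2 and 12.4 in the mesenchyme and 6.6, 6.8 and 7.1 in the epithelium (5.57 ± 0.23). Both sets separated the tissues fully. The microfibril-associated glycoprotein gene Mfap2 had 12.8, 12.8 and 12.5 in the mesenchyme and 9.7, 10.2 and 9.8 in the epithelium (2.80 ± 0.23), while at 1447833_x_at the tissues overlapped and the difference of 0.30 ± 0.23 was not called. Its relative Mfap5, which also binds fibrillin, differed less, by 1.37 ± 0.23 (adjusted p = 6.06e-06) at the brightest and 2.53 ± 0.23 at the other probe set. Mfap4, which encodes an elastic fibre-associated glycoprotein, had 12.5, 12.4 and 12.3 in the mesenchyme, against 8.7, 9.1 and 8.5 in the epithelium (3.63 ± 0.23). Emilin1, a protein of the boundary between elastin and microfibrils, had the class's largest difference at a brightest probe set, with 12.2, 12.2 and 12.0 in the mesenchyme and 7.4, 7.7 and 7.7 in the epithelium (4.53 ± 0.23, adjusted p = 7.51e-19), and 1431834_a_at gave 3.47 ± 0.22.

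The fibulins, glycoproteins that bind elastin and basement membrane, did not behave alike. Fbln5, which is needed for elastic fibre assembly, had 11.2, 11.0 and 10.9 in the mesenchyme and 8.1, 8.6 and 8.2 in the epithelium (2.73 ± 0.23), but by 1446377_at the tissues overlapped (0.10 ± 0.24, not called). Efemp1, or fibulin-3, had 8.9, 8.6 and 8.7 in the mesenchyme, against 5.6, 5.5 and 5.8 in the epithelium (3.10 ± 0.23), where it was no brighter than the bacterial controls. Fbln2 differed by 2.00 ± 0.23 without overlap at its brightest probe set, whereas 1438375_at overlapped between the tissues and was not called (0.23 ± 0.23, adjusted p = 0.473 over all probe sets). Fbln1 was the exception. Its brightest probe set had 12.0, 12.1 and 11.6 in the mesenchyme, against 11.0, 11.7 and 11.6 in the epithelium, and the tissues overlapped. The difference was 0.47 ± 0.24 (95% interval -0.02 to 0.95, adjusted p = 0.122), and its other probe sets gave 0.40 and 0.27. The interval allows a difference towards the mesenchyme of almost 2-fold, so that equal expression was not shown.

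The cross-linking enzymes followed the fibre proteins. Lox, the lysyl oxidase that cross-links collagen and elastin, had 12.0, 11.9 and 11.6 in the mesenchyme and 8.4, 8.6 and 8.5 in the epithelium (3.33 ± 0.23, adjusted p = 4.01e-15). A separate probe set, 1448228_at, gave 3.23 ± 0.25, whereas the dim 1437903_at gave 0.60 and was not called. Loxl1, the relative most tied to elastin, had 10.8, 11.0 and 10.5 in the mesenchyme, against 7.8, 7.7 and 7.6 in the epithelium (3.07 ± 0.23), and its 1436063_at overlapped between the tissues and was not called (0.53 ± 0.23). At the brightest probe set, the lowest mesenchymal array lay above the highest epithelial array by 3.0 for Lox and by 2.7 for Loxl1.

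**Figure D2:**
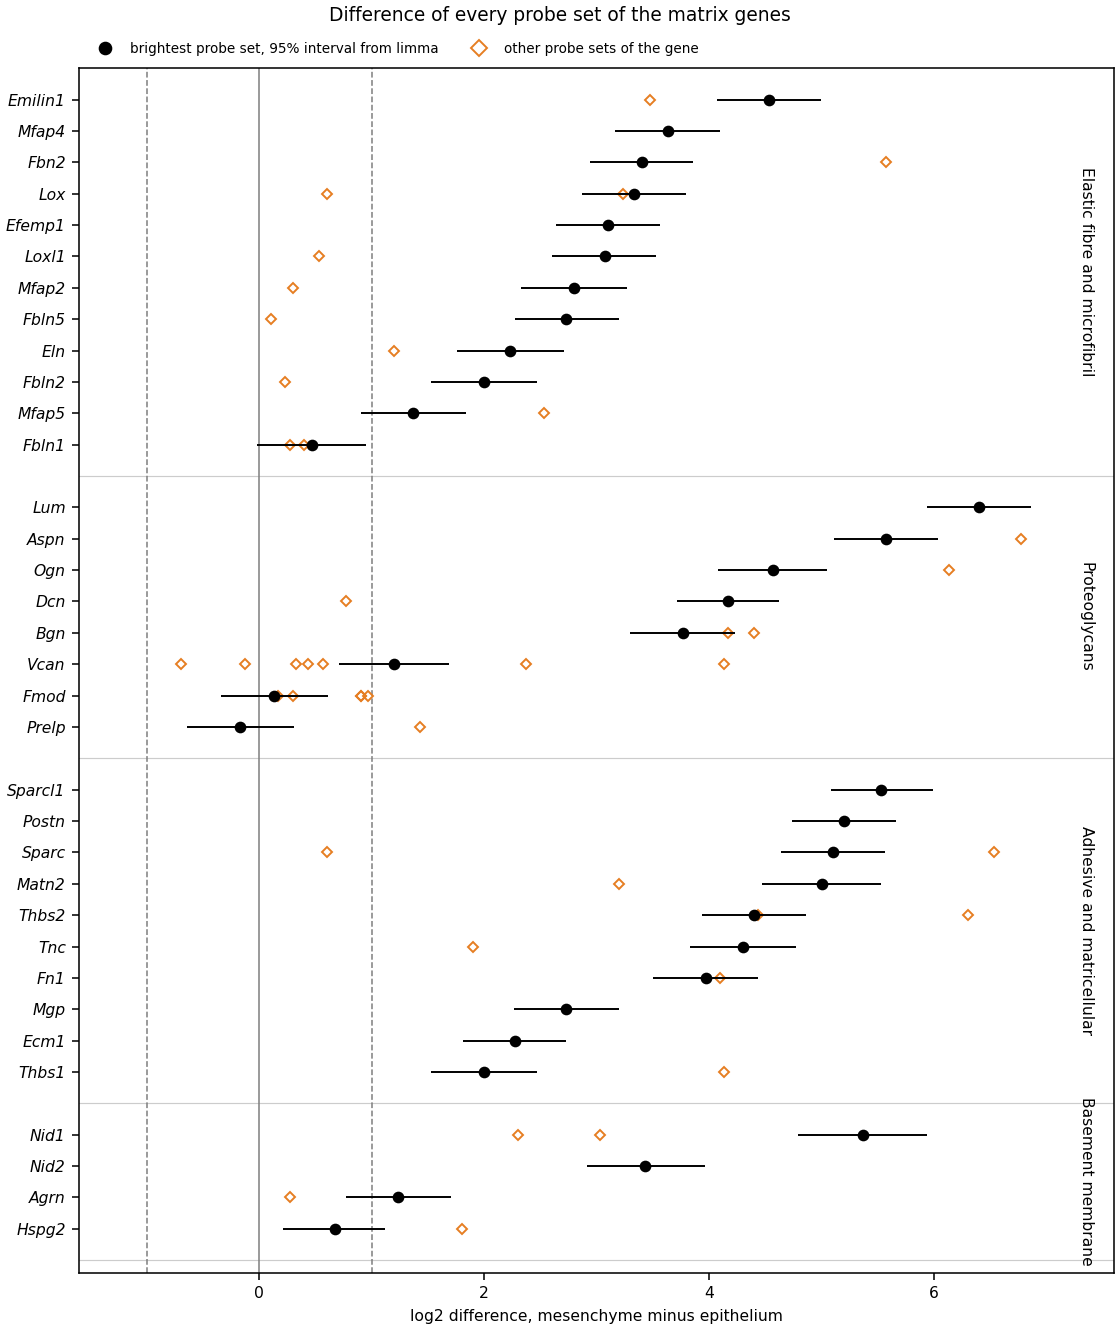
Log2 difference, mesenchyme minus epithelium, of all 76 probe sets of the 34 genes: the brightest probe set as a black dot with its 95% interval from limma, the others as open diamonds, and dashed lines at a 2-fold difference. Most genes lie right of the dashed line, while several have a further probe set near 0, and Fmod, Prelp, Fbln1 and Hspg2 have their brightest probe set below the 2-fold line.

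By brightest probe sets, the proteoglycans held the largest and the smallest differences of the whole group. Of the 8 genes, 6 were higher in the mesenchyme (median difference 3.97), and Fmod and Prelp were not called. Lum encodes lumican, a keratan sulfate proteoglycan of collagen fibrils. It had 13.0, 12.9 and 12.8 in the mesenchyme, against 6.4, 6.5 and 6.6 in the epithelium, a difference of 6.40 ± 0.22 or 84.4-fold (adjusted p = 8.42e-23). Dcn, or decorin, had 13.9, 13.6 and 13.7 in the mesenchyme and 9.5, 9.7 and 9.5 in the epithelium (4.17 ± 0.23, 18-fold). Its 1441506_at differed by 0.77 ± 0.23 without overlap and was not called (adjusted p = 0.00776 over all probe sets), although it was with spike-in centring (1.03). That centring raised mesenchyme B, whose spike-in controls averaged 9.80, against 10.56 to 10.77 on the other arrays. Bgn, or biglycan, the close relative of decorin, was called by all 3 of its probe sets, with differences of 3.77, 4.17 and 4.40.

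Aspn, or asporin, a relative of decorin that binds collagen, had 11.6, 11.5 and 11.3 in the mesenchyme, against 5.7, 6.0 and 6.0 in the epithelium (5.57 ± 0.23). At its other probe set, 1448421_s_at, it had 12.1, 11.6 and 11.8 in the mesenchyme and 5.0, 5.0 and 5.2 in the epithelium (6.77 ± 0.23). Ogn, or osteoglycin, had 12.3, 11.9 and 11.8 in the mesenchyme and 7.1, 7.4 and 7.8 in the epithelium (4.57 ± 0.24, adjusted p = 2.39e-18), and 6.13 ± 0.23 by 1419663_at. Epithelial values of Aspn did not exceed those of the bacterial controls, so that no fold is given for it.

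Fmod and Prelp, which encode fibromodulin and a basic relative of lumican, did not share this pattern. Fmod had 8.8, 8.7 and 9.2 in the mesenchyme, against 8.6, 8.6 and 9.1 in the epithelium (0.13 ± 0.24, 95% interval -0.34 to 0.61, adjusted p = 0.693). None of its 6 probe sets reached the 2-fold line, but 3 of the dimmer ones came close, at 0.97, 0.90 and 0.90, with adjusted p-values of 0.001, 0.00179 and 0.0013 over all probe sets, and the remaining 2 gave 0.30 and 0.17. These 3 were called with spike-in centring (1.23, 1.16 and 1.16), subject to the low spike-in controls of mesenchyme B given above. Without epithelium B, 1437685_x_at (1.17) and 1437718_x_at (1.07) were called, and without mesenchyme B, 1437685_x_at was (1.05). The sign of the small difference of its brightest probe set turned under 4 rescalings of the arrays. Prelp had 9.7, 9.9 and 9.3 in the mesenchyme and 9.7, 10.0 and 9.7 in the epithelium (-0.17 ± 0.23, 95% interval -0.64 to 0.31, adjusted p = 0.614), a sign that turned with spike-in centring and in the mean of its probe sets. Its other probe set, 1416321_s_at, had 9.7, 9.4 and 9.2 in the mesenchyme, against 7.9, 8.0 and 8.1 in the epithelium, and was called (1.43 ± 0.23, adjusted p = 2.70e-06 over all probe sets). The tissues overlapped at the brightest and not at the other probe set. The suffix of the called set marks probes that can match more than 1 transcript. The same caution holds for sets of other genes ending in _s_at or _x_at, among them sets of Hspg2, Aspn, Thbs2 and Fmod.

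Apart from Bgn, which lies between Haus7 and Atp2b3 on the X chromosome, these small proteoglycan genes lie in neighbouring groups in the RefSeq gene order of the assembly GRCm38.p6, a grouping examined after the values were seen. On chromosome 13, Ecm2, Aspn, Omd and Ogn follow each other, and Aspn and Ogn were called while Omd (0.80 ± 0.23, adjusted p = 0.00505) and Ecm2 (-0.43 ± 0.24, adjusted p = 0.146) were not. With spike-in centring Omd was called as well (1.06, adjusted p = 0.0124). Both genes were dim, with Omd between 6.0 and 7.3 and Ecm2 between 6.4 and 7.2 on all 6 arrays. On chromosome 10 the order is Dcn, Lum, Kera and Epyc. Dcn and Lum were called, whereas Kera (0.33) and Epyc (0.00) stood between 5.8 and 6.6 on all 6 arrays, close to the bacterial controls. On chromosome 1 the order is Optc, Prelp and Fmod, and none of the 3 was called by its brightest probe set (Optc 0.73 ± 0.23, adjusted p = 0.00792). Genes next to each other thus differed in call within the group of chromosome 10 and, by the deposited scale, within that of chromosome 13.

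The 250 bases before the RefSeq start of the 5 small proteoglycan genes held in the promoter table are shown so that the called genes Aspn, Ogn and Bgn can be read beside the uncalled Prelp and Fmod. They run 5′ to 3′ on the strand of the gene in GRCm38.p6, at chr13:49544193-49544442 (plus strand) for Aspn, chr13:49607765-49608014 (plus) for Ogn, chrX:73483351-73483600 (plus) for Bgn, chr1:133921402-133921651 (minus) for Prelp and chr1:134037004-134037253 (plus) for Fmod. Capitals mark matches on either strand to the TATA box (TATAAA), the CAAT box (CCAAT), the Sp factor motif (GGGCGG), the AP-1 motif (TGANTCA), the TEAD motif (GGAATG) or the CArG box of serum response factor.
Aspn: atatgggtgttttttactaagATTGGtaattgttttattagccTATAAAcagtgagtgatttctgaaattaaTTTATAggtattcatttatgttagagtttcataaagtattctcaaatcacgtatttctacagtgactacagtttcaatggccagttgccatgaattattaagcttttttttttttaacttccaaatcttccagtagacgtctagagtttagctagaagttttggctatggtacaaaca
Ogn: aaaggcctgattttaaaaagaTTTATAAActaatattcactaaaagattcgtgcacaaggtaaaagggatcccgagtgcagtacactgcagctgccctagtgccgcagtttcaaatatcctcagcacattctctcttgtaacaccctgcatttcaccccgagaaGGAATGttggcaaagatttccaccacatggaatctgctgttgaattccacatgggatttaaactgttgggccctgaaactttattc
Bgn: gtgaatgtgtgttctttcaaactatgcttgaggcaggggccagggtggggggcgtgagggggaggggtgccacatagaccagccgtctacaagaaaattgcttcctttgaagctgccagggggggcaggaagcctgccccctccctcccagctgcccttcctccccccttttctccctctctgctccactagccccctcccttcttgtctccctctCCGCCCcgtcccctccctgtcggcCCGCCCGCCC
Prelp: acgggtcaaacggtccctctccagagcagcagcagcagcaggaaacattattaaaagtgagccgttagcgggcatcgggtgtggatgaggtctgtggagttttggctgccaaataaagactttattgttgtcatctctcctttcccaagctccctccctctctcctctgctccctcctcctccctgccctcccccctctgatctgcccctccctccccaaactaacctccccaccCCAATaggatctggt
Fmod: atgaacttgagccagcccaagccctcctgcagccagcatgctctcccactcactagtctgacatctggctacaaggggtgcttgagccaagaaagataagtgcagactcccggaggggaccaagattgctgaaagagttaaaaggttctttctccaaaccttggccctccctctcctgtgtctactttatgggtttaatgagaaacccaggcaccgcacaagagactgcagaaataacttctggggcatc

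Aspn held 3 matches, TATAAA on each strand and CCAAT. Ogn held TATAAA on both strands, overlapping each other, and 1 GGAATG. Bgn held 3 GGGCGG matches, 2 of them overlapping, Prelp had 1 CCAAT, and Fmod had none. None of the TATAAA matches lay within the last 100 bases before the start. Of the 34 genes, 20 had a promoter in the table. TATAAA occurred in 6 of these 20 genes (14.3% of all genes in the table), GGGCGG in 12 (35.4%), CCAAT in 7 (37.5%), GGAATG in 3 (14.4%), TGANTCA in 2 (7.82%) and the CArG box in none (1.62%). These matches describe letters in the window only.

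Vcan, or versican, the large hyaluronan-binding proteoglycan, gave answers that differed among its probe sets. Its brightest probe set, 1427257_at, had 8.9, 8.5 and 8.8 in the mesenchyme, against 7.1, 7.9 and 7.6 in the epithelium (1.20 ± 0.24, adjusted p = 7.75e-05). This call ended with equal array medians (0.90), quantile normalization (0.89), cyclic loess (0.98) and centring on ribosomal protein genes (0.88), and without epithelium A (0.98). By 1427256_at, Vcan had 10.3, 10.0 and 10.1 in the mesenchyme, against 5.8, 6.4 and 5.8 in the epithelium (4.13 ± 0.23), and by 1421694_a_at it differed by 2.37 ± 0.28. The remaining 5 probe sets were not called, and 4 of them gave 0.57, 0.43, 0.33 and -0.13. The fifth, 1433043_at, ran the other way, at 6.0, 6.4 and 6.4 in the mesenchyme and 7.1, 6.8 and 7.0 in the epithelium (-0.70 ± 0.23, adjusted p = 0.0141 over all probe sets). The brightest set was thus not the one with the largest difference.

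**Figure D3:**
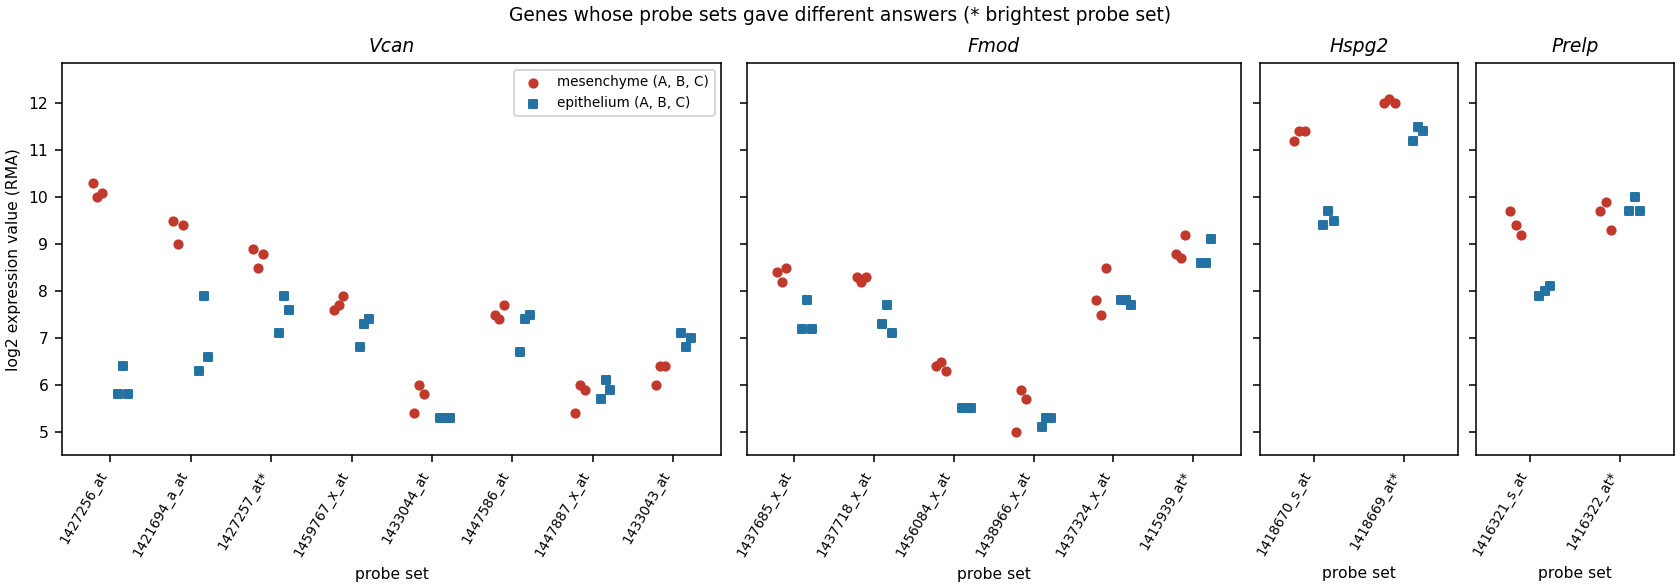
Log2 expression values of each probe set of Vcan, Fmod, Hspg2 and Prelp on the 3 mesenchymal (circles) and 3 epithelial arrays (squares), ordered by difference, with an asterisk at the brightest probe set. The call of Vcan, Hspg2 and Prelp changes with the probe set, from 4.13 to -0.70 for Vcan, whereas no probe set of Fmod reached 1 on the deposited scale.

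The adhesive and matricellular genes were all higher in the mesenchyme, 10 of 10, with a median difference of 4.35. Sparc, a calcium- and collagen-binding glycoprotein, had 14.4, 14.2 and 14.3 in the mesenchyme and 9.2, 9.4 and 9.0 in the epithelium (5.10 ± 0.23, 34.3-fold). By 1448392_at the difference was 6.53 ± 0.23, and by the dim 1458204_at it was 0.60, which was not called. Its relative Sparcl1 had 13.7, 13.5 and 13.4 in the mesenchyme, against 8.0, 8.1 and 7.9 in the epithelium (5.53 ± 0.23, adjusted p = 3.57e-21). Postn, or periostin, a protein of collagen-rich and mechanically loaded tissue, had 13.1, 13.0 and 13.1 in the mesenchyme and 7.7, 8.1 and 7.8 in the epithelium (5.20 ± 0.23). None of these genes had an epithelial array above 9.4 at its brightest probe set.

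Fn1, or fibronectin, which binds integrins and organises other matrix proteins, had 13.5, 13.4 and 13.2 in the mesenchyme, against 9.2, 9.6 and 9.4 in the epithelium (3.97 ± 0.23, adjusted p = 3.36e-17). Its probe sets gave like differences, 3.97 and 4.10. Tnc, or tenascin-C, an anti-adhesive glycoprotein of developing mesenchyme, had 10.9, 10.9 and 10.8 in the mesenchyme and 6.9, 6.5 and 6.3 in the epithelium (4.30 ± 0.23), and 1456344_at gave 1.90 ± 0.23. The thrombospondins, which bind growth factors and proteases, both changed. Thbs2 had 12.0, 11.8 and 11.9 in the mesenchyme, against 7.6, 7.5 and 7.4 in the epithelium (4.40 ± 0.22), and its other probe sets gave 4.43 and 6.30. Thbs1 differed by 2.00 ± 0.23 at its brightest probe set and by 4.13 ± 0.23 at 1460302_at. Matn2, a matrilin that joins matrix filaments, had 11.6, 11.0 and 11.0 in the mesenchyme and 5.7, 6.9 and 6.0 in the epithelium (5.0 ± 0.26), with epithelium B as its highest epithelial array, and its 1419442_at gave 3.20 ± 0.23.

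The smallest differences of this class were those of Ecm1, Mgp and Thbs1. Ecm1, a glycoprotein that binds perlecan and fibulins, had 10.3, 10.6 and 10.3 in the mesenchyme and 8.2, 8.2 and 8.0 in the epithelium (2.27 ± 0.23, adjusted p = 9.51e-11). Mgp, the matrix Gla protein that restrains calcification of vessels and cartilage, had 11.6, 11.4 and 11.3 in the mesenchyme, against 8.4, 9.0 and 8.7 in the epithelium (2.73 ± 0.23). Both genes stood without overlap between the tissues.

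The basement membrane genes divided into nidogens with large differences and heparan sulfate proteoglycans with small ones. Nid1 encodes nidogen-1, which links laminin to collagen IV. It had 13.0, 12.9 and 12.7 in the mesenchyme, against 6.6, 8.4 and 7.5 in the epithelium (5.37 ± 0.28, adjusted p = 3.44e-18). Its epithelial SD of 0.90 was the widest of the 34 genes, and its other probe sets gave 3.03 ± 0.22 and 2.30 ± 0.26. Nid2, its paralog, had 11.1, 11.0 and 11.0 in the mesenchyme and 7.2, 8.4 and 7.2 in the epithelium (3.43 ± 0.26). For both nidogens epithelium B was the highest epithelial array, and it still lay 2.6 or more below the lowest mesenchymal array.

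Hspg2, or perlecan, and Agrn, or agrin, carry heparan sulfate chains in the basement membrane. Hspg2 had 12.0, 12.1 and 12.0 in the mesenchyme and 11.2, 11.5 and 11.4 in the epithelium at its brightest probe set (0.67 ± 0.23, 95% interval 0.21 to 1.12). The tissues did not overlap and the adjusted p was 0.0158, but the difference was under 2-fold and the gene was not called. By 1418670_s_at it had 11.2, 11.4 and 11.4 in the mesenchyme, against 9.4, 9.7 and 9.5 in the epithelium, and was called (1.80 ± 0.23, adjusted p = 2.36e-08 over all probe sets). Agrn had 11.8, 11.6 and 11.4 in the mesenchyme and 10.3, 10.6 and 10.2 in the epithelium (1.23 ± 0.23, adjusted p = 2.82e-05), and its dimmer probe set gave 0.27. The call of Agrn ended with equal array medians (0.93), with centring on ribosomal protein genes (0.92) and in the mean of its probe sets (0.75). With Fbln1, these were the 3 genes whose epithelial mean exceeded 10.

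Probe sets of the same gene often differed. Of the 76 probe sets, 52 were called higher in the mesenchyme and none higher in the epithelium, where limma called 15.5% and 5.98% of all probe sets. At an unadjusted p under 0.05, 1 of the 76 was higher in the epithelium, 1433043_at of Vcan. By class, 16 of 24 probe sets were called for elastic fibres, 13 of 26 for proteoglycans, 17 of 18 for adhesive genes and 6 of 8 for the basement membrane. Of 26 genes with several probe sets, 13 had all of them called and 11 only some, and Fbln1 and Fmod had none. Of the 24 probe sets not called, 18 had a mean under 9 in both tissues. Counting a gene as changed when any of its probe sets was called gave 32 of 34. This rule favours genes with several probe sets, and its share over all genes was not computed.

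Further matrix genes of the same classes, 61 of 64 measured, were described beside them. Both lists were chosen with earlier results of these data known, so the contrast between them is a description only. Higher in the mesenchyme were 28, higher in the epithelium 2, and 31 were not called, with a median difference of 0.80. Among the elastic fibre and cross-linking genes 9 of 11 were higher in the mesenchyme, among adhesive genes 12 of 25, among basement membrane-associated genes 5 of 8, and among proteoglycans and link proteins 2 of 17. The last list consists largely of proteoglycans known from cartilage and brain, such as Acan and Ncan. The largest differences were those of Abi3bp, a collagen-associated protein (5.37 ± 0.23), Hmcn1, or hemicentin-1 (4.77 ± 0.23), Tgfbi, an integrin-binding adhesion protein (4.53 ± 0.24), and Mmrn1, a multimerin of endothelium and platelets (4.33 ± 0.24). They were followed by the peroxidasin gene Pxdn, whose enzyme cross-links collagen IV (4.10), the procollagen protease enhancer Pcolce (3.93), serglycin (Srgn), a proteoglycan of blood cell granules (3.60), dermatopontin (Dpt, 3.57), Frem1 (3.43) and Fndc1 (3.30).

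The genes higher in the epithelium were Tinag, a basement membrane antigen known from kidney tubules, and Spock1, a testican proteoglycan. Tinag had 7.2, 8.1 and 8.0 in the mesenchyme and 9.7, 10.2 and 9.7 in the epithelium (-2.10 ± 0.25, adjusted p = 5.18e-09). Spock1 had 7.1, 6.9 and 7.4 in the mesenchyme, against 8.6, 8.8 and 8.6 in the epithelium (-1.53 ± 0.23, adjusted p = 6.57e-07), but in the mean of its probe sets it was not called (-0.80). Both separated the tissues without overlap.

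**Figure D4:**
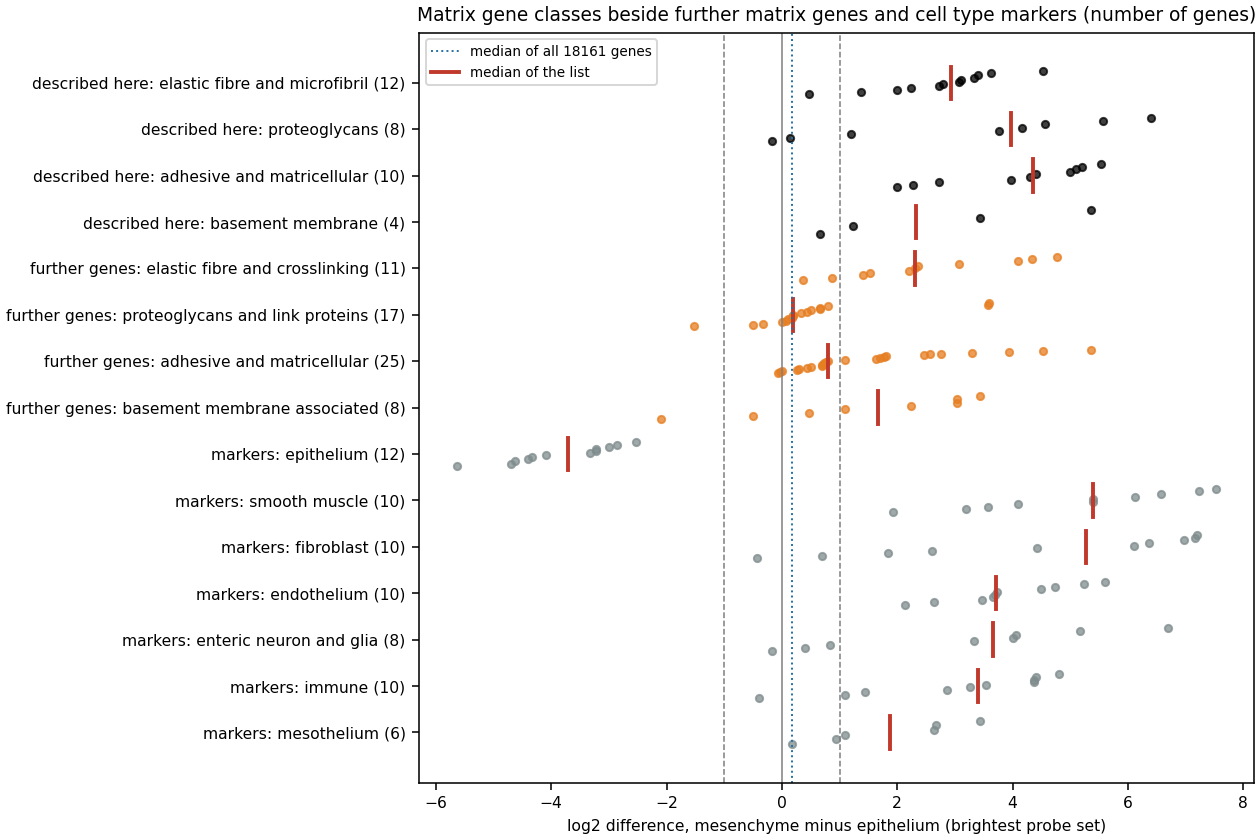
Log2 difference, mesenchyme minus epithelium, of each gene (brightest probe set) in the 4 classes described (black), in further matrix genes (orange) and in cell type markers (grey), with the list median in red and the median of all genes dotted. Medians of the 4 classes described lie between 2.33 and 4.35 and those of the further matrix genes between 0.20 and 2.30, with epithelial markers at -3.72 and smooth muscle markers at 5.40.

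Markers of the cell types of the gut wall were mostly higher in the mesenchyme, as the matrix genes were, and epithelial markers were lower there. All 12 epithelial markers were higher in the epithelium, with summed linear levels of 5592 to 8227 in the mesenchyme and 86673 to 118997 in the epithelium. Smooth muscle markers (10 of 10 higher in the mesenchyme) summed to 129768 to 133391 in the mesenchyme and 3606 to 4226 in the epithelium, and fibroblast markers (8 of 10) summed to 94057 to 100211 in the mesenchyme and 2216 to 2872 in the epithelium. Endothelial markers (10 of 10) summed to 30364 to 36299 in the mesenchyme and 2102 to 2809 in the epithelium, and immune markers (9 of 10) to 32455 to 36658 in the mesenchyme and 13045 to 17309 in the epithelium. The epithelial sum of the immune list includes 1 marker with an epithelial mean of at least 12. Its mesenchymal level was 77.6%, 72.4% and 77.6% of the epithelial level in mesenchyme A, B and C. Enteric neuron and glia markers (5 of 8) summed to 20919 to 22778 in the mesenchyme and 2251 to 2823 in the epithelium, and mesothelial markers (4 of 6) to 5325 to 5448 in the mesenchyme and 2301 to 3348 in the epithelium. The 34 matrix genes summed to 142931 to 166898 in the mesenchyme and 15274 to 20040 in the epithelium. Of the defining markers, Actg2 differed by 7.23 ± 0.26, Myh11 by 6.57 ± 0.23, Pdgfra by 6.97 ± 0.23, Pecam1 by 3.67 ± 0.23, Ptprc by 4.40 ± 0.23 and Msln by 2.63 ± 0.23, while Sox10 (0.83 ± 0.23) was not called on the deposited scale but was with spike-in centring (1.09). Vil1 (-4.70 ± 0.25), Cdh1 (-5.63 ± 0.27) and Epcam (-4.63 ± 0.24) ran the other way. Vil1, Actg2 and Vim, which belong to the epithelial, smooth muscle and fibroblast lists, had also served to choose the pools. Their separation between the tissues is therefore not independent of that choice. The part of each cell type in the matrix values was not tested.

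The epithelial signal of the matrix genes, as a share of their mesenchymal signal, lay between those of other lists, as a description without a test. Genes of each list entered by their mesenchymal mean, which is also the divisor, so that low shares are favoured. Over the 13 matrix genes with a mesenchymal mean of at least 12, the median epithelial level was 3.76%, 4.63% and 5.32% of the mesenchymal level on the linear scale in epithelium A, B and C. It was 1.58%, 2.15% and 1.85% for 8 smooth muscle markers and 0.806%, 1.22% and 1.04% for 6 fibroblast markers. Endothelial markers (3 genes) had 2.11%, 4.52% and 2.21%, and immune markers (4 genes) had 5.61%, 7.52% and 7.34%, above the matrix genes on each array. For single genes, including those with a lower mesenchymal mean, it ranged among called genes up to 43.5% (Vcan). Among those not called it was 63.0% for Hspg2, 72.4% for Fbln1, 91.2% for Fmod and 112% for Prelp. Without detection calls, signal of the gene itself and nonspecific signal cannot be told apart at these levels.

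Within a tissue the spread of the matrix genes was close to that of all genes. The median SD of the 34 genes was 0.15 in the mesenchyme and 0.21 in the epithelium, against 0.17 and 0.26 over all genes. Their largest SD was 0.35 in the mesenchyme and 0.90 in the epithelium. Mesenchyme A was the sole highest mesenchymal array for 22 of the 34 genes (36.8% of all genes) and mesenchyme C for 1 of them (29.4% of all genes). Mesenchyme C was also the sole highest mesenchymal array for 10 of the 12 epithelial markers. The median deviation of the matrix genes from their tissue mean was 0.10, 0.00 and -0.13 in mesenchyme A, B and C, small beside their differences between tissues. In the epithelium it was -0.17, 0.17 and -0.05 in A, B and C. Epithelium B was the sole highest epithelial array for 21 of the 34 genes, and for 75.4% of all genes. The part of array brightness and of epithelial carry-over in these deviations was not tested.

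**Figure D5:**
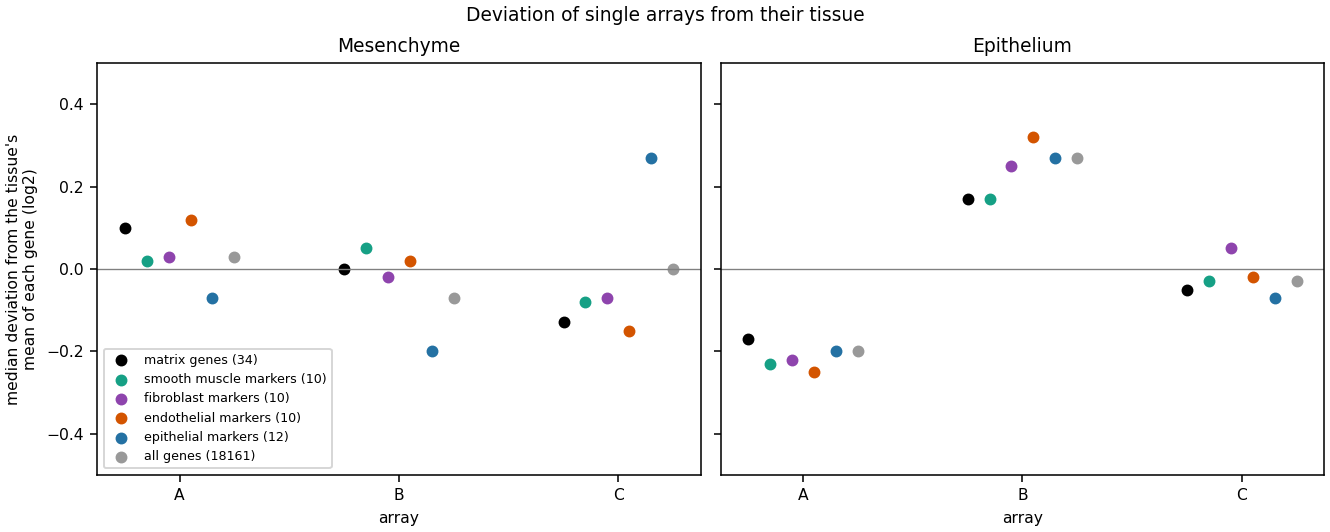
Median over genes of the deviation of each array from the mean of its tissue (log2), for the 34 matrix genes, 4 marker lists and all genes, in the mesenchyme (left) and the epithelium (right). Matrix genes lie at 0.10 in mesenchyme A and -0.13 in mesenchyme C, and all lists are highest in epithelium B.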

How the data were processed

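Expression was measured on Affymetrix mouse whole-genome arrays, 3 per tissue. The authors deposited log2 values per probe set. RMA is the method named in the submitters' processing notes, and its version, its settings and any step between arrays are not given in the sources used here. Deposited figures come in steps of 0.1 without detection calls, and no further scaling was applied. The number of arrays limits their precision. Standard errors and p-values from limma draw mostly on the variance of all probe sets (31.7 prior against 4 residual degrees of freedom). They reflect the spread between a gene's own pools only in part. Nid1, with an epithelial SD of 0.90, had a standard error of 0.28, and Postn, with 0.21, had 0.23. Only a marker-based selection of the prepared pools was arrayed, and its spread need not be that of unselected pools.

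Of 45101 probe sets, 64 controls were set aside. Platform symbols, given for 34945 probe sets singly, 932 with several genes and 9160 with none, were updated through RefSeq names (GRCm38.p6). Promoters come from RefSeq.

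limma 3.58.1 (R 4.3.3; lmFit, eBayes; 4 residual and 31.7 prior degrees of freedom) was fitted to all probe sets, with Benjamini-Hochberg adjustment over probe sets or over the 18161 genes, and checked on simulated data. No replicate block was used. No filter on low values was applied.

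The genes, classes, further lists and markers were chosen with earlier results of these data known. All members were named, with the difference of each probe set, and up to 10 further matrix genes per direction. Alternatives were 5 scalings, a filter, a trend, a replicate block, other representatives and thresholds, and each array left out.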

Additional observations from a re-analysis of the deposited data

How the results depend on the processing

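The median difference of all genes was 0.17 as deposited. It was -0.13 with equal array medians, -0.11 with quantile normalization, -0.05 with cyclic loess and -0.15 with ribosomal protein genes as centre. With spike-in controls as centre it was 0.43, a value that drew on the low controls of mesenchyme B (9.80). Under none of these scalings was a gene of the group called higher in the epithelium. Between 28 and 30 of the 34 genes were called higher in the mesenchyme under these scalings, and between 29 and 30 with each array left out, without dim probe sets, with an intensity trend or with other representatives. They numbered 31 on adjusted p alone and 27 at 4-fold. Same-letter arrays of the tissues deviated together with correlations of -0.274 (A), -0.106 (B) and 0.129 (C), so the letters were not taken as pairs, and with the letter as a replicate block 30 genes and 52 probe sets were called as without it. Between 49 and 56 of the 76 probe sets were called under the scalings and with each array left out, 58 on adjusted p alone and 45 at 4-fold. Among the scalings, the calls lost were those of Vcan and Agrn given above, while Hspg2 was called in the mean of its probe sets (1.23).

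In either direction, counts over all 18161 genes were 7490 on adjusted p alone and 1745 at 4-fold, and over all 45037 probe sets 16887 and 3516. The probe sets of the group higher in the epithelium numbered 1 with equal medians, with ribosomal centring and on adjusted p alone, in each case 1433043_at of Vcan. The further matrix genes higher in the epithelium numbered 1 in the mean of probe sets and 1 at 4-fold.

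Signs turned only where differences were small. With equal medians they were -0.17 (Fmod), and by single probe sets -0.03 (Fbln1, 1439688_at), -0.07 (Fbln2, 1438375_at), -0.20 (Fbln5, 1446377_at), -0.13 (Fmod, 1437324_x_at) and -0.03 (Agrn, 1443980_at). With quantile normalization the same probe sets gave -0.18 (Fmod), -0.08 (Fbln1), -0.23 (Fbln5), -0.14 (Fmod, 1437324_x_at) and -0.07 (Agrn), and with cyclic loess -0.13 (Fmod), -0.02 (Fbln1), -0.11 (Fbln5) and -0.04 (Fmod, 1437324_x_at). With ribosomal centring they were -0.18 (Fmod), -0.02 (Mfap2, 1447833_x_at), -0.05 (Fbln1), -0.08 (Fbln2), -0.22 (Fbln5), -0.15 (Fmod, 1437324_x_at), -0.02 (Fmod, 1438966_x_at) and -0.05 (Agrn). With spike-in centring they were 0.09 (Prelp) and 0.13 (Vcan, 1447887_x_at), and in the mean of probe sets 0.63 (Prelp). Leaving out 1 array in turn gave -0.02 to 0.30 for Fmod, -0.12 to 0.38 for 1437324_x_at of Fmod, -0.10 to 0.20 for 1446377_at of Fbln5 and -0.25 to 0.05 for 1447887_x_at of Vcan. The cause was not tested.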
